A study of Homo sapiens with 24 samples.

Results

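The genes described here are 9 members of the NF-κB pathway: the subunit genes NFKB1, NFKB2, REL, RELA and RELB, and the regulators NFKBIA, NFKBIE, NFKBIZ and TNFAIP3. Every region of changed chromatin accessibility in the deposited lists was taken that lay within 10 kb of a transcription start site (TSS) of one of these genes, or overlapped the gene body. This gave 18 of the 26369 distinct regions in the 8 lists, 13 of increased and 5 of decreased accessibility, and each of the 9 genes had at least 1, as had 57% of all protein-coding genes. The ATAC-seq experiment, in which a transposase cuts accessible DNA, comprised 24 libraries of the human diffuse large B-cell lymphoma (DLBCL) lines OCI-LY3 and VAL. AZD4573, a CDK9 inhibitor (CDK9i), was given to each line at 30 nM for 0, 3 or 8 h. The lists name their reference DMSO, the vehicle; the labels have no DMSO group, and the 0 h libraries were taken to be that reference. There were 4 libraries per line and time, of which 2 came from standard ATAC-seq on 50000 cells and 2 from Fast-ATAC-seq on 5000 cells. The labels do not say whether libraries came from separate cultures, and each line stands for a single tumour. Each list holds the regions that the authors called increased or decreased against 0 h in the same line, without any value for a library, so no spread between libraries and no depth can be given for a region. A region that is absent from a list was not called; whether it was open, closed or unchanged is unknown. The 3 h and 8 h lists of a line share their 0 h libraries. The submitters' design text places OCI-LY3 in the germinal centre and VAL in the activated B-cell subtype, while these lines are usually classed the other way round, and the subtype was not used here. All 6 B-cell marker genes examined had a listed region, against 0 of 3 T-cell and 1 of 3 myeloid markers; lists of changed regions alone do not show which genes the cells use.

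NF-κB factors are dimers of Rel-domain proteins that bind κB sites in DNA. In resting cells they are held in the cytoplasm by IκB proteins, which are degraded after the IκB kinase (IKK) marks them, and the freed dimers switch on survival and inflammatory genes along with the genes of their own inhibitors. The pathway is a known driver of many DLBCL tumours downstream of B-cell and Toll-like receptors. CDK9 is the kinase of P-TEFb, which releases paused RNA polymerase II, and NF-κB target genes with short-lived transcripts are among those that depend on this step.

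Matches to the κB consensus, a 10-letter motif that opens with GGG, closes with CC and has a purine, any pair of bases and a pair of pyrimidines between them, were searched on both strands of every listed region with 0 mismatches, and overlapping matches were counted as 1 site. A match on the other strand reads as the reverse complement, opening with GG and closing with CCC. The 18 regions held 25 such sites, of which 8 lay in an annotated untranslated region. The sequences below are shown because they carry matches of the promoter-covering regions of increased accessibility and, for contrast, 2 distal increased regions and the single decreased region with a match. They were read from GRCh37 (hg19) on the strand of the gene, 5′ to 3′, and capitals mark the κB match.
NFKB2, upstream of the canonical TSS, chr10:104155017-104155295, forward strand: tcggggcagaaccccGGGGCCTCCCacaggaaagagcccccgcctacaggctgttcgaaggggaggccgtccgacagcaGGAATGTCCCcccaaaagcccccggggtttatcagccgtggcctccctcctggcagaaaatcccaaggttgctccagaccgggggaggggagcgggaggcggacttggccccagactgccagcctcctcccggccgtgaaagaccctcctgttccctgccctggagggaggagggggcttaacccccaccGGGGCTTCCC
NFKB2, the match nearest to the canonical TSS, chr10:104155431-104155460, forward strand: tggtattttcGGGACTTTCCtaagctgctc
NFKBIA, upstream of the canonical TSS, chr14:35874012-35874292, reverse strand: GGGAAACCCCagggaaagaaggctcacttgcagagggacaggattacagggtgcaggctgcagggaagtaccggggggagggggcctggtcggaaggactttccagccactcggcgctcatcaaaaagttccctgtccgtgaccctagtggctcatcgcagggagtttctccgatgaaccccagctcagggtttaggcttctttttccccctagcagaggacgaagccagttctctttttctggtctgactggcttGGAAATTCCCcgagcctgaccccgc
RELA promoter, upstream of the TSS, chr11:65431082-65431111, reverse strand: atttacccctGGGGGCCTCCtgctcccaca
RELB promoter, distal match, chr19:45504581-45504610, forward strand: gtgacgcgtgGGGGTTTTCCcgttccccag
RELB promoter, proximal match, chr19:45504653-45504682, forward strand: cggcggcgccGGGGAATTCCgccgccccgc
RELB intron 4, chr19:45519772-45519801, forward strand: ggttggtgagGGGATTTTCCaaagtggcga
NFKBIZ promoter, chr3:101568109-101568138, forward strand: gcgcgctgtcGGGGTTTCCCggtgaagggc
TNFAIP3 intron 2, chr6:138194686-138194715, forward strand: acttagcactGGGGAATTCCagatgttact
NFKB1 intron 5, in a decreased region, chr4:103485606-103485635, forward strand: acaaaacccaGGGGGCTCCCtgtctgttgc
The longer NFKB2 stretch runs from position -445 to -167 relative to the TSS and holds 3 matches, and the NFKBIA stretch runs from -337 to -57 and holds 2. A match is a string of letters and was not tested as a binding site.

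The 9 genes fell into groups by direction. NFKB2, RELA, RELB, NFKBIA, NFKBIE and TNFAIP3 had increased regions and 0 decreased ones, NFKB1 and REL had decreased regions and 0 increased ones, and NFKBIZ had 1 of each, in different lines. Among all 20163 protein-coding genes treated in the same way, 37% had increased regions alone, 14% had decreased regions alone, 6% had both and 43% had none. Of the 13 increased regions, 5 covered the canonical TSS of their gene, those of NFKB2, RELA, RELB, NFKBIA and NFKBIZ. None of the 5 decreased regions did; the closest lay 7393 bp and the farthest 112937 bp from the nearest TSS of its gene. With the region over the SLC35B2 start at NFKBIE included, 6 of the 13 increased regions (46.2%) and 0 of the 5 decreased ones covered a canonical TSS of some protein-coding gene, against 32.3% of all increased and 5.46% of all decreased regions. Increased regions thus lay at starts more often than decreased ones in the lists as a whole.

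**Figure D1:**
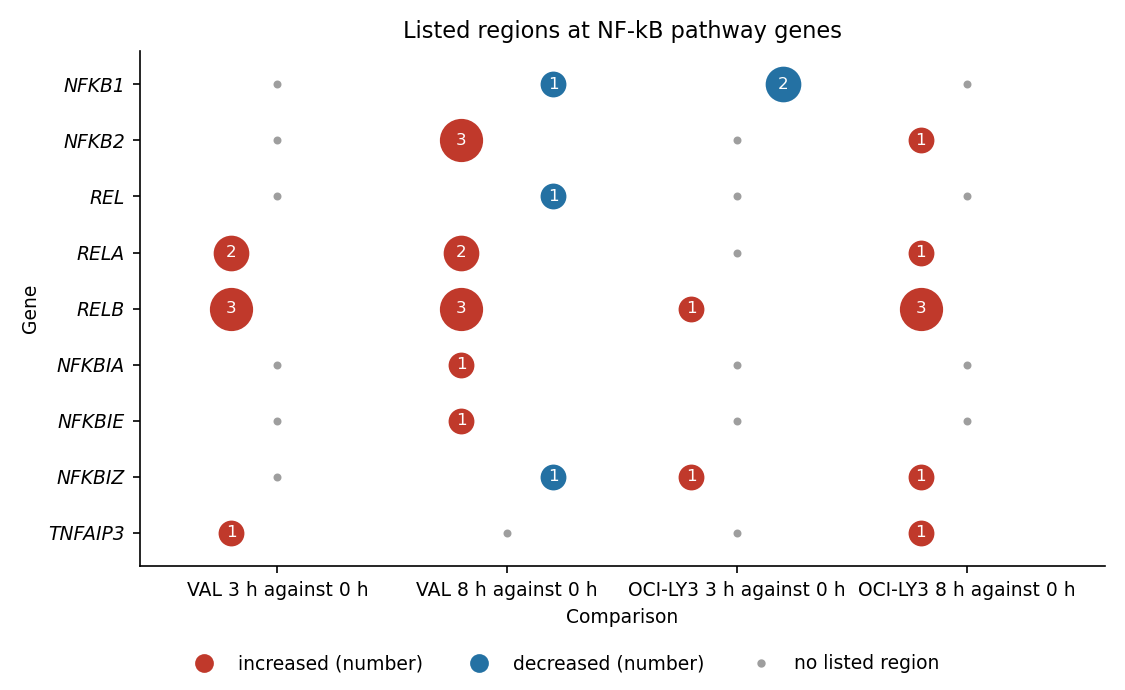
Number of listed regions at each of the 9 genes (rows) in each comparison with 0 h (columns); red circles give increased and blue circles decreased regions, with the number inside, and a grey dot stands for no listed region. RELB is the only row with circles in all 4 columns, and NFKB1 and REL hold blue circles alone.

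NFKB2 encodes the precursor that the non-canonical arm of the pathway cuts into a DNA-binding subunit. Its gene lies on chromosome 10 from 104153867 to 104162281. The 8 h list of VAL held 3 increased regions here. The first, from 104143594 to 104144074, was 481 bp wide and lay 9793 bp upstream of the nearest NFKB2 TSS, outside the transcript. The second, from 104153743 to 104155876, was 2134 bp wide, covered the canonical TSS at 104155462 with exons 1 and 2 and the start of the coding sequence, and held 8 of the 25 κB matches. The third, from 104159174 to 104159839, spanned exons 13 to 15 of 23 in the coding part of the gene, and was the one NFKB2 region that was also listed in OCI-LY3, at 8 h. At 3 h NFKB2 had 0 listed regions in both lines.

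RELA encodes the main transactivating subunit of the canonical arm, and lies on the reverse strand of chromosome 11 from 65421070 to 65430561. An increased region of 1727 bp, from 65429794 to 65431520, covered its canonical TSS and exon 1 in VAL (3 and 8 h) and in OCI-LY3 (8 h). A further region, from 65419805 to 65421171, overlapped the last of 11 exons, outside the coding sequence, and was increased in VAL (both times). Thus the RELA promoter was listed in VAL from 3 h on and in OCI-LY3 (8 h).

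RELB, the subunit that pairs with the NFKB2 product, had more listed regions than the other 8 genes. It lies on chromosome 19 from 45504719 to 45541450, and its 4 regions were all increased. A region of 540 bp, from 45502483 to 45503022, lay 1697 bp upstream of the TSS and was listed in VAL (3 and 8 h) and in OCI-LY3 (8 h). The promoter itself, from 45504049 to 45505953 with exon 1, was listed in VAL (both times) and in OCI-LY3 at neither. A region in intron 3, from 45513191 to 45513983, was listed in OCI-LY3 (both times) and in VAL (3 h), but not at 8 h. A region in intron 4, from 45518904 to 45520527, was listed at 8 h in both lines. At least 3 increased regions were found at RELB in VAL (3 h) and at 8 h and in OCI-LY3 (8 h), as at 0.952%, 5.96% and 1.27% of protein-coding genes. Chromosome 19 as a whole was almost entirely increased: 99.6% of its listed regions in VAL (3 h), 99.4% in VAL (8 h), 97.2% in OCI-LY3 (3 h) and 98.7% in OCI-LY3 (8 h). Of the 1480 protein-coding genes of that chromosome, 37.6%, 64.9%, 22.1% and 42.4% had an increased region in these comparisons, and the part of the chromosome in the RELB values was not tested.

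NFKB1 and REL, the other 2 subunit genes, had decreased regions. NFKB1, which encodes the precursor of the DNA-binding subunit of the canonical arm, spans 115973 bp of chromosome 4 from 103422487 to 103538459. In VAL at 8 h a region of 1437 bp in intron 5, from 103485056 to 103486492, was decreased. In OCI-LY3 at 3 h a region in intron 19, from 103530798 to 103531390, and a region over exon 24, the last, from 103537469 to 103538829, were decreased. None of the 3 regions was listed in both lines or at both times. At least 2 decreased regions, as at NFKB1 in OCI-LY3 (3 h), were found at 0.62% of protein-coding genes of any length. A longer gene body can take in more regions by the rule, and no share was taken among genes of like length. The 3 regions lay 60524 to 112937 bp from the nearest NFKB1 TSS and came in through the gene body. REL encodes the transactivating subunit typical of mature B cells, on chromosome 2 from 61108626 to 61158747. Its single region, from 61099786 to 61101233, lay 7393 bp upstream of the nearest TSS and was decreased in VAL (8 h). On chromosomes 4 and 2, 15.8% and 24.4% of the regions listed in VAL (8 h) were increased, so decreased ones were the more frequent kind there. The same held on chromosome 4 in OCI-LY3 (3 h), where 37.4% were increased. Other members had increased regions where increased ones were the less frequent kind. Such shares were 34.2% on chromosome 6 (NFKBIE) and 49% on chromosome 10 (NFKB2) in VAL (8 h). In OCI-LY3 (8 h) they were 44.1% on chromosome 6 (TNFAIP3) and 47.8% on chromosome 3 (NFKBIZ). RELA and NFKBIA, on chromosomes 11 and 14, went with theirs in VAL (8 h), at 55.4% and 69.8%.

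NFKBIA and NFKBIE encode IκB proteins that hold NF-κB dimers in the cytoplasm, and NFKBIA is itself a rapid NF-κB target. NFKBIA lies on the reverse strand of chromosome 14 from 35870285 to 35873955, and a region of 1975 bp, from 35872611 to 35874585, covered its TSS with exons 1 and 2 of 6. It was increased in VAL (8 h) and was in none of the other 3 comparisons. At NFKBIE, on the reverse strand of chromosome 6 from 44225903 to 44233525, the single increased region, from 44224047 to 44225993, was likewise listed in VAL (8 h) alone. It touched the last exon of NFKBIE, 7295 bp from its nearest TSS, but covered a TSS of SLC35B2, which encodes a transporter of the Golgi, and HSP90AB1 was also in reach. With each region given to the gene of the nearest TSS, NFKBIE had no listed region.

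NFKBIZ encodes an atypical, nuclear IκB protein that acts as a co-activator. It lies on chromosome 3 from 101546835 to 101579866, with its canonical TSS at 101568358. In OCI-LY3 the promoter region of 2045 bp, from 101567577 to 101569621, was increased at 3 and 8 h; it was not listed in VAL. In VAL at 8 h a region of 1129 bp, from 101536339 to 101537467, was decreased, 9370 bp upstream of the distal NFKBIZ TSS and farther still from the canonical one. NXPE3 was also in reach of that region. TNFAIP3, the ubiquitin-editing enzyme that shuts off IKK signalling and is often lost in lymphoma, lies on chromosome 6 from 138188351 to 138204451. Its single region, 890 bp wide in intron 2, from 138194136 to 138195025, was increased in VAL (3 h) and in OCI-LY3 (8 h). No listed region covered the TSS of TNFAIP3, NFKBIE, NFKB1 or REL.

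**Figure D2:**
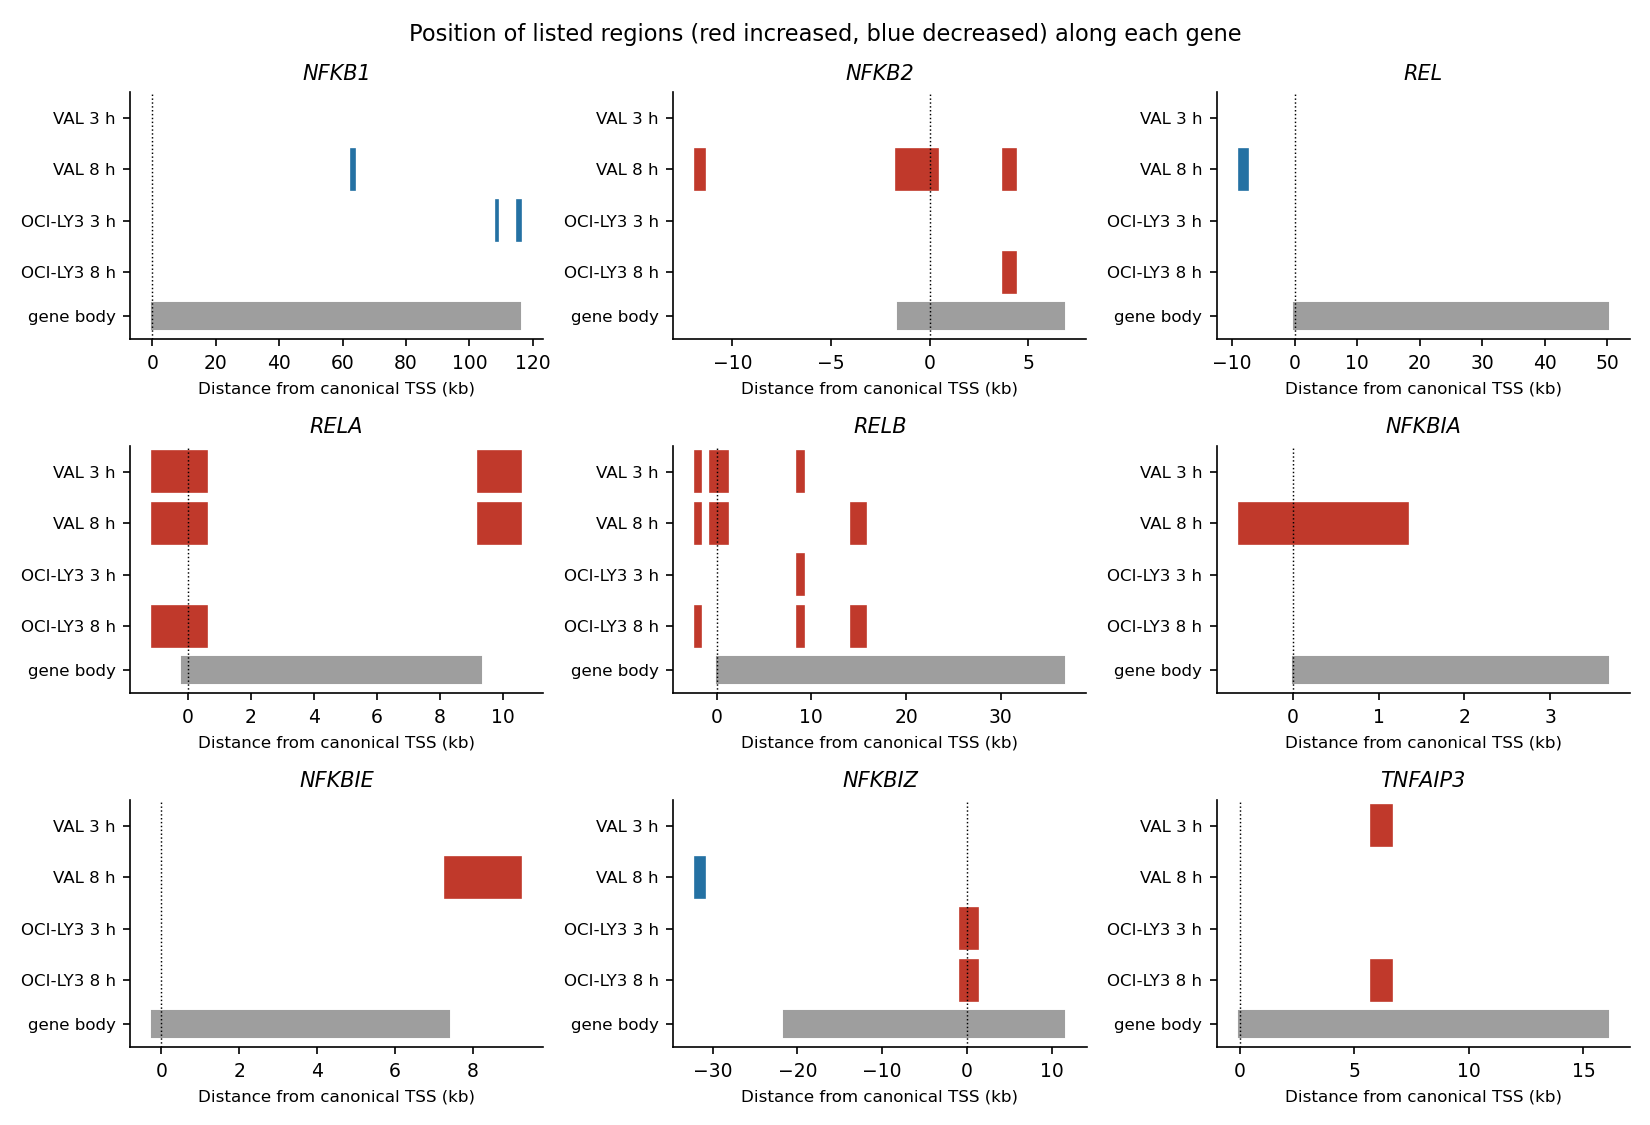
Position of the 18 listed regions along each gene, in kb from the canonical TSS (dotted line at 0) in the direction of transcription; rows are the 4 comparisons with 0 h, red is increased, blue is decreased, and the grey bar is the annotated gene body. Each panel has its own scale; red blocks cover the dotted line at NFKB2, RELA, RELB, NFKBIA and NFKBIZ, while the blue blocks lie away from it.

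The regions near the 10 kb limit show what the rule takes in. Just inside it were the upstream region of NFKB2 at 9793 bp and that of NFKBIZ at 9370 bp. Just outside were an increased region 11304 bp from a RELB TSS, listed in VAL (both times) and in OCI-LY3 (8 h), and a region 12348 bp from a REL TSS, decreased in VAL (8 h) and in OCI-LY3 (3 h). Distances were taken to the TSS of transcripts tagged basic. The TSS of all annotated transcripts brought in 5 more regions, all downstream of a gene's end. One of them, from 101581378 to 101583438 and 1512 bp past the end of NFKBIZ, was decreased in all 4 comparisons, which none of the 18 regions was. Of the others, 2 lay past the end of NFKB1 and were decreased in OCI-LY3 (both times), 1 of them in VAL (8 h) too. The remaining 2, past the ends of RELB and NFKB2, were increased.

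Over the 9 genes, 1 gene is 11.1% of the list. In VAL at 3 h, 3 members had an increased region (33.3%), as had 16.9% of all protein-coding genes, and 0 had a decreased one, as had 4.7%. In VAL at 8 h, 5 members had an increased region (55.6%, against 36.9%) and 3 a decreased one (33.3%, against 14.2%). In OCI-LY3 at 3 h the counts were 2 (22.2%, against 10.6%) and 1 (11.1%, against 5.29%), and at 8 h they were 5 (55.6%, against 19%) and 0 (against 8.18%). Each of these differences amounts to fewer than 4 genes, no test was made on the list, and nothing particular to it is read from them.

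**Figure D3:**
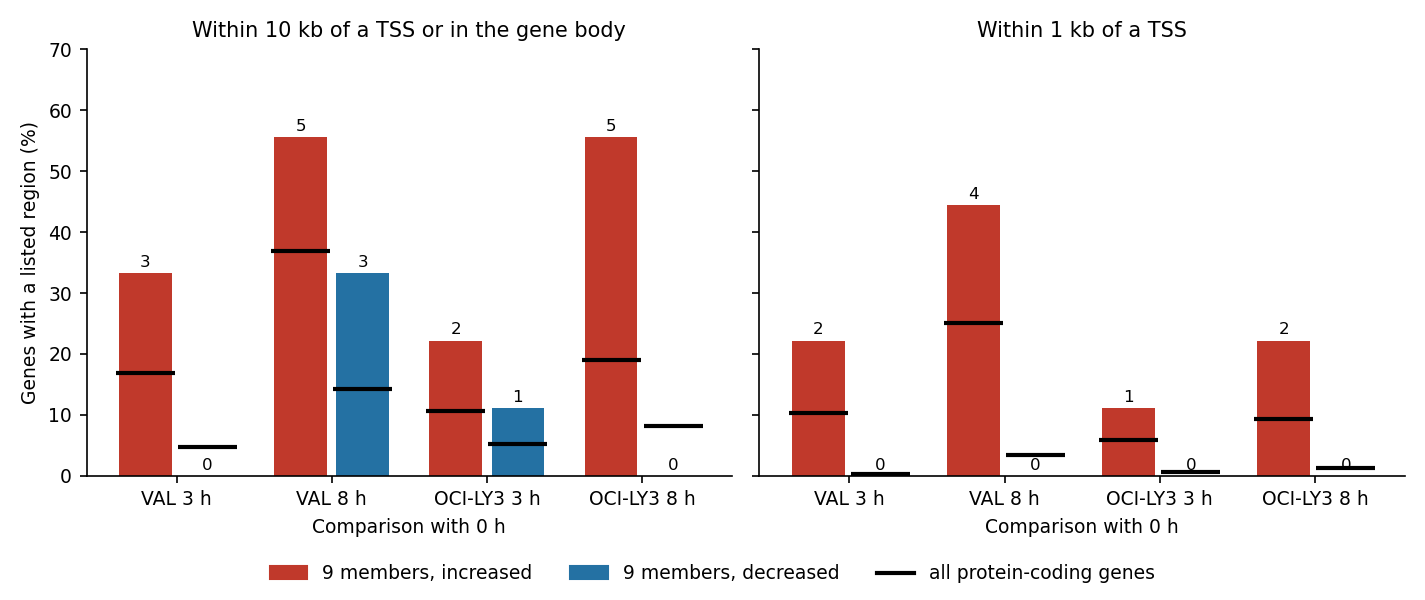
Share of the 9 members with an increased (red bars) or decreased (blue bars) region in each comparison with 0 h, in percent, with the number of members on each bar; black lines give the same share over 20163 protein-coding genes. The left panel counts regions within 10 kb of a TSS or in the gene body and the right panel those within 1 kb of a TSS of the gene, where the members have increased regions alone.

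Within 1000 bp of a TSS of their own the members had increased regions alone. These were at RELA and RELB in VAL (3 h) (2 of 9, where 10.3% of protein-coding genes had one), at NFKB2, RELA, RELB and NFKBIA in VAL (8 h) (4 of 9, against 25.1%), at NFKBIZ in OCI-LY3 (3 h) (1 of 9, against 5.92%) and at RELA and NFKBIZ in OCI-LY3 (8 h) (2 of 9, against 9.3%). A decreased region at this distance was found for 0 members in each comparison, and for 0.322% and 3.38% of protein-coding genes in VAL (3 and 8 h) and 0.694% and 1.28% in OCI-LY3 (3 and 8 h). With the TSS of any annotated gene counted, 1 of the 5 decreased regions (20%) was that near, against 13.3% of all decreased regions. Of the 13 increased regions 6 were (46.2%), against 43.9% of all increased ones.

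The lines shared part of these regions. VAL had 15 of the 18 regions in a list, OCI-LY3 had 9, and 6 were in lists of both, all 6 increased in both. At 8 h, 4 increased regions with equal coordinates were listed in both lines, which is 40.0% of the 10 increased in VAL and 57.1% of the 7 in OCI-LY3. They lay at NFKB2, RELA and RELB, so 3 of 9 members had such a region, as had 12.7% of protein-coding genes. At 3 h only the intron 3 region of RELB was shared, at 1 of 9 members (5.54% of protein-coding genes). Decreased regions were shared between lines at 0 members at 3 h (0.997% of protein-coding genes) and 0 at 8 h (2.81%). Regions listed in VAL alone, 9 in all, included the promoters of NFKB2, RELB and NFKBIA, and those in OCI-LY3 alone, 3 in all, were the NFKBIZ promoter and the regions at the end of NFKB1. The lists of VAL are longer, with 11121 increased and 9260 decreased regions at 8 h against 4367 and 3463 in OCI-LY3. A difference between the lines at a single gene was therefore not tested and cannot be told apart from a difference in how many regions were called.

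In time, the increased regions of VAL numbered 6 at 3 h and 10 at 8 h, with 4 listed at both: both RELA regions, the RELB promoter and the region upstream of it. The 2 that were listed at 3 h and not at 8 h were RELB intron 3 and TNFAIP3 intron 2. In OCI-LY3 the 2 increased regions of 3 h, at RELB intron 3 and the NFKBIZ promoter, were listed again among the 7 of 8 h. Of the decreased regions, those of VAL, 3 in all, were listed at 8 h alone, and those of OCI-LY3, 2 in all, at 3 h alone. Both times were set against the same 0 h libraries, so that a region listed at both is not 2 independent observations.

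κB matches were found in 10 of the 18 regions (55.6%), against 32.2% of all 26369 listed regions. Among the increased regions these were 9 of 13 (69.2%), against 44% of all increased regions, and among the decreased ones 1 of 5 (20%), against 19.6%. All 5 regions that covered the canonical TSS of their own member gene held a match, as did 4 of the other 8 increased regions, 1 of them the NFKBIE region over the SLC35B2 start. The increased regions at the members had a median GC content of 61.1% and a median width of 1624 bp, against 56.2% and 1320 bp for all increased regions. The decreased ones had 42.6% and 1361 bp, against 41.4% and 1300 bp. The motif is rich in G and C, so its count moves with GC content and with width, and their part in these counts was not tested.

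The NFKB2 promoter held the most matches of the 18 regions. It is described here because it had the most, so its rank is no test. Of the 1946 listed regions within 10% of its width of 2134 bp, itself included, 2 others held at least 8 matches, and of the 505 that were also within 5 percentage points of its GC content of 65.6%, 0 others did. The shares that follow count the region itself as well. The NFKBIA promoter, with 4 matches, was less far out: 3.36% of regions of like width, and 7.82% of those of like width and GC content (66.3%), had at least as many. The 2 matches of RELB intron 4, at a GC content of 46.2%, were reached by 13.6% of regions of like width and 5.03% of those of like width and GC content. For the 1 match of TNFAIP3 intron 2, at 36.6%, these shares were 22.5% and 7.35%. The 2 matches each in the promoters of RELA, RELB and NFKBIZ were reached by 32.5%, 35.8% and 34% of regions of like width and GC content. For the regions at the last exons of RELA and NFKBIE and in NFKB1 intron 5, such shares were 55.8%, 39% and 19.4%. A narrower form of the consensus, which fixes more of its middle letters, left 4 sites, 2 in the NFKB2 promoter region and 2 in that of NFKBIA. The AP-1 motif TGANTCA, on both strands, was found in 9 of the 18 regions (50%), against 30.7% of all regions, with 6 matches in the RELA promoter. By direction, 7 of the 13 increased regions at the members (53.8%) held it, against 24.5% of all increased ones. Of the 5 decreased ones 2 did (40%), against 37.3%. No share among regions of like width or GC content was taken for this motif, and the part of width in these counts was not tested.

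**Figure D4:**
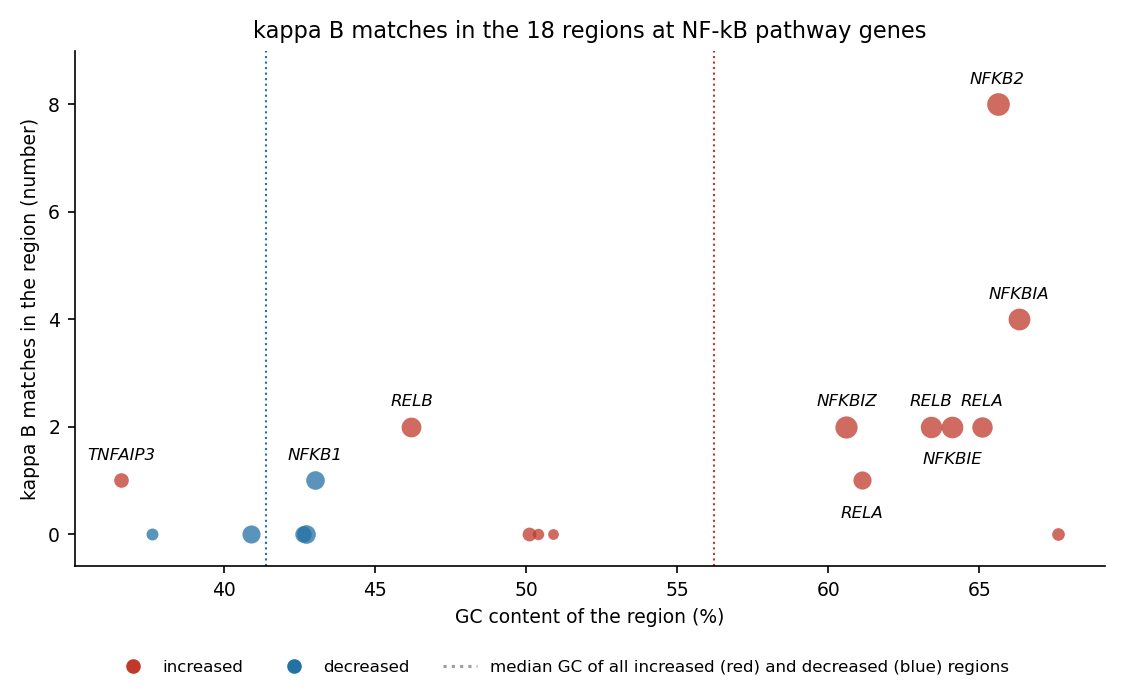
Number of κB matches in each of the 18 regions (vertical axis) against the GC content of the region in percent (horizontal axis); red points are increased and blue points decreased, point area is in proportion to width, and dotted lines mark the median GC content of all increased (56.2%) and all decreased (41.4%) regions. The NFKB2 promoter has 8 matches and the NFKBIA promoter 4, while all other regions have at most 2.

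Of 50 further genes of the pathway, 36 had a region in at least 1 list (72%, against 57% of all protein-coding genes) and 14 had none. An increased region was listed for 13 of the 50 (26%) in VAL (3 h), 24 (48%) in VAL (8 h), 8 (16%) in OCI-LY3 (3 h) and 20 (40%) in OCI-LY3 (8 h). A decreased one was listed for 2 (4%), 6 (12%), 2 (4%) and 2 (4%). The shares over all protein-coding genes are those given for the 9 members. Of the 8 genes of the IKK complex and its upstream kinases, 4 had an increased region in VAL (8 h) and 1 in OCI-LY3 (8 h), while 2 (25%) and 0 had a decreased one. CHUK, a catalytic IKK subunit, had none in any list, and IKBKB, the other one, had 1 increased region in OCI-LY3 (8 h). Of the 10 other IκB proteins and inhibitors, 6 had an increased region at 8 h in each line, while a decreased one was listed for 2 (20%) in VAL and for 0 in the other line. Of the 20 NF-κB target genes, 10 had an increased region in VAL and 7 in OCI-LY3 at that time, with 1 and 0 for decreased ones, and BCL2A1, CFLAR, ICAM1, CD83, IL6, IRF4 and CXCL10 had 0 listed regions.

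**Figure D5:**
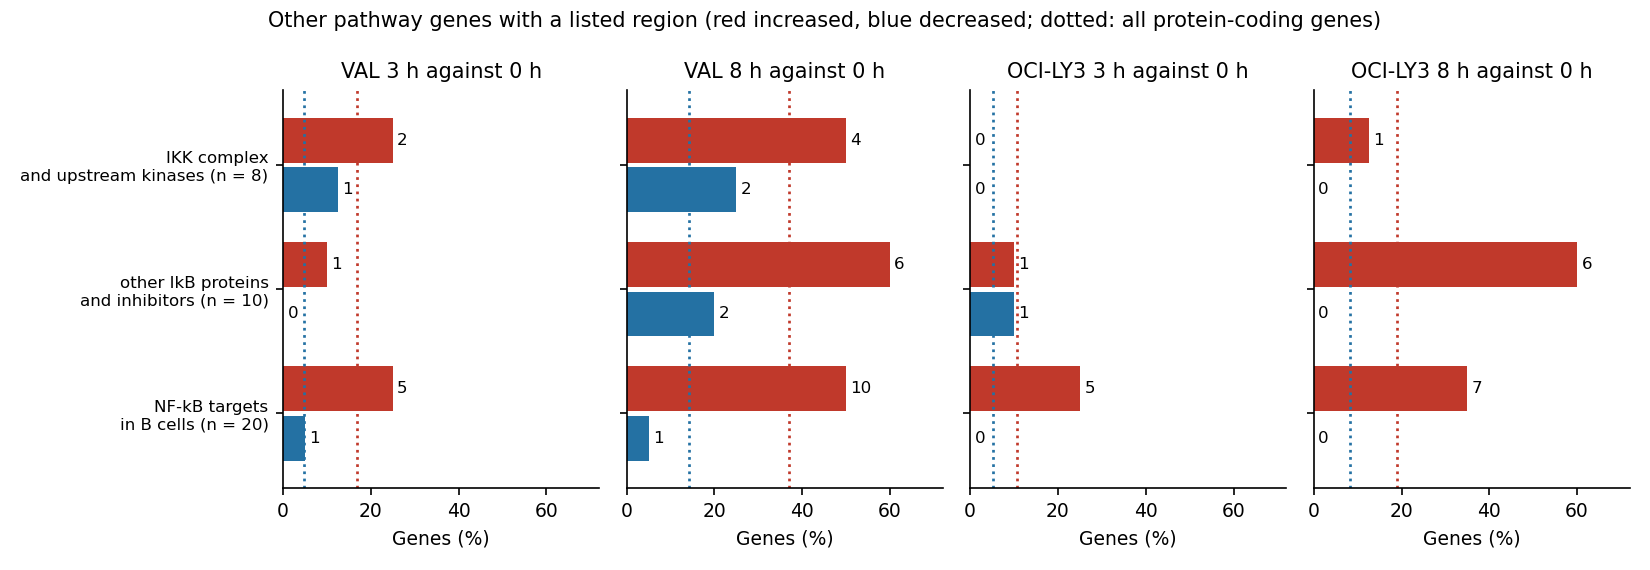
Share of the other pathway genes with an increased (red) or decreased (blue) region, in percent, for 3 groups of genes (rows) in each comparison with 0 h (panels); numbers at the bars are genes, and dotted lines give the share over all protein-coding genes. The red bars reach 60% for the 10 other IκB proteins and inhibitors at 8 h in both lines.

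By the rule for naming, 8 of the 50 genes had a promoter region changed in one direction in both lines at 8 h or a region in all 4 comparisons, and all of these regions were increased. These 8 genes are 16% of the 50, and 11.1% of all protein-coding genes met the same rule. The promoter of IRAK1, a kinase of the Toll-like receptor pathway, was increased in all 4 comparisons, as was that of GADD45B, a stress-response target on chromosome 19, whose promoter region held 6 κB matches. For BCL2L1, which encodes an anti-apoptotic protein, a region in the gene body, 13216 bp from the nearest TSS, was increased in all 4. TNF and LTA lie side by side and share their 3 regions with LTB. The regions over the TNF TSS and over the LTA TSS were increased in VAL (8 h) and in OCI-LY3 (3 and 8 h). The remaining region, from 31548232 to 31550760, held 4 κB matches and was increased in all 4 comparisons. It covered neither of these TSS and lay 4713 bp from that of TNF and 8166 bp from that of LTA. LST1 and NCR3 were in reach of it as well as LTB, and its distance to the TSS of these genes is not given here. Which of the genes it acts on was not tested. The promoter of the adaptor gene TRAF2 was increased in VAL (3 and 8 h) and in OCI-LY3 (8 h). NFKBID and NFKBIB, which encode further IκB proteins, had an increased promoter region at 8 h in both lines, and that of NFKBID also in VAL (3 h). SIRT2 was also in reach of the NFKBIB region, and HCST and TYROBP were in reach of the NFKBID region. Of these 8 genes, NFKBID, NFKBIB and GADD45B lie on chromosome 19.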

How the data were processed

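Per the methods, hg19 alignment (bowtie2) was followed by removal of mitochondrial, ambiguous and duplicate reads, by MACS2 peak calling per sample and by bedtools merging; the authors then used DESeq2 to set each time against 0 h on counts over the merged set. Tool versions for the ATAC-seq steps, and whether the library protocol entered that fit, are not given in the sources used here. The limit on the adjusted p-value is stated differently in the methods and in a legend. The labels give 5000 cells for Fast-ATAC, while the protocol text gives 50000. The deposited files give, as other values, coordinates in bp only; there were 0 columns of per-sample values.

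The annotation was GENCODE 44 on GRCh37; 0 regions ran past a chromosome end, and sequence was read from GRCh37 (Python 3.11.15, numpy 2.4.6, pandas 2.3.3, pysam 0.24.0). TSS were those of transcripts tagged basic, the background was all 20163 protein-coding genes, a region was assigned to every gene in reach with an overlap of at least 1 bp, and coordinates are 1-based. The join and the motif search were tested on simulated data. The members and gene lists were chosen with earlier results of these data known. Named genes were the 9 members and those of the other pathway genes with a promoter region in the same direction in both lines at 8 h or regions in all 4 comparisons, at most 20; the further genes given as having no or few listed regions were chosen after their values were seen. Results for 12 of the 50 other genes, as a group, are not reported here. Alternatives varied the window, the gene body, the TSS set, the assignment of regions, the overlap, merging, the promoter width and the motif. Counts over regions carry no replicate error, so no p-value is given.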

Additional observations from a re-analysis of the deposited data

How the results depend on the processing

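Of 62 alternative values, 51 stayed within 1.5 times the reported count and 11 did not. No paired analysis was possible because per-library values are not part of the lists; for the same reason no library could be left out and no stricter threshold tried. With a window of 20000 bp the members with a decreased region numbered 1 (VAL, 3 h), 4 (OCI-LY3, 3 h) and 1 (OCI-LY3, 8 h), where 5.62%, 6.51% and 9.55% of all protein-coding genes had one, and those with an increased region 4 (OCI-LY3, 3 h), against 13.2%. With a window of 5000 bp, 1 member had a decreased region in VAL (8 h), against 13.1%. With the TSS of all transcripts the decreased counts were 1 for VAL (3 h) and 2 at each time for OCI-LY3, against 5.12%, 5.97% and 8.81%. Without gene bodies 0 members had a decreased region in OCI-LY3 (3 h), against 2.27%. These settings change which regions are in reach by construction, so the low counts of members with a decreased region depend on the window, the TSS set and the gene body. κB matches were found in 2 of the 18 regions (11.1%) within 200 bp around the midpoint, against 6.85% of all regions, and in 2 (11.1%) with the narrower consensus, against 2.51%. Counting overlaps of at least 1 bp as shared, merging regions within 1000 bp, and a promoter of 500 bp left the counts they bear on within 1.5 times.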

Other observations

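Of all 26369 listed regions, 13686 were increased and 12877 decreased in at least 1 list. Beyond the 18 regions, 27 further listed regions lay within 50 kb of a TSS of the 9 genes, 17 increased and 10 decreased. Around NFKBIZ there were 5, all of them decreased in VAL (8 h), and 1 of them, past the end of the gene, was decreased in OCI-LY3 at both times too. Around RELB there were 4, all increased in VAL (3 and 8 h) and in OCI-LY3 (8 h), the nearest 11.3 kb from a RELB TSS; 2 of them were increased in OCI-LY3 (3 h) too. TNFAIP3 had 3, of which a region 36.4 kb away was decreased in VAL (3 h), a region 16.6 kb away was decreased in OCI-LY3 (3 h), and a region 38.2 kb away was increased in VAL (both times). REL had 2, both decreased. NFKBIE had the most, 6, of which 5 were increased and 1, in OCI-LY3 (8 h), was decreased. NFKB2 had 4 and RELA 3, all increased. NFKB1 and NFKBIA had 0 further regions within this distance of a TSS, though 2 decreased regions lay 940 and 2588 bp past the end of NFKB1. Which genes these distal regions act on was not tested. Counts at this distance were not made for all protein-coding genes. In VAL (8 h), increased regions made up 99.4% of those listed on chromosome 19 (RELB), 55.4% on chromosome 11 (RELA) and 49% on chromosome 10 (NFKB2). On chromosomes 6 (NFKBIE and TNFAIP3), 3 (NFKBIZ) and 2 (REL) the shares were 34.2%, 28.2% and 24.4%.

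Among the B-cell markers, CD79A, CD79B and CD22 had increased regions and 0 decreased ones, and MS4A1, which encodes a B-cell surface protein, had 1 decreased region in each comparison and 1 increased region at each time in OCI-LY3. PAX5, a master factor of B-cell identity, had 0 listed regions in VAL; in OCI-LY3 it had 5 decreased regions at 3 h, and 2 decreased and 1 increased at 8 h.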
